A study of Homo sapiens with 4 samples.

Results

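Among the stretches of chromatin occupied by the transcription factor IRF3 in both replicates, 402 of 32246 were at least 3 kb long, and these broad shared regions are described here. MM1.S is a long-established line of human multiple myeloma, the cancer of plasma cells. The cells were grown in RPMI 1640 medium with 10% FBS, received no treatment and were fixed with formaldehyde before DNA bound by IRF3 was immunoprecipitated with an IRF3 antibody and sequenced. There were 4 samples, 2 IRF3 ChIP libraries and 2 inputs, and an input was used only where the authors called peaks over it. Peaks of the 2 ChIP libraries that shared at least 1 bp were merged, merged regions with a peak of both were kept, and the members were selected on their merged length, 3000 bp or more. Whether the replicates were separate cultures is not in the labels, and their spread may be technical.

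IRF3 is known as the factor that waits inactive in the cytoplasm until nucleic-acid sensors trigger its phosphorylation, after which it enters the nucleus and activates interferon and antiviral genes through paired GAAA elements. Most called regions of a sequence-specific factor are short, about as wide as the sheared fragments around a single summit. Long stretches of factor and cofactor occupancy are known mostly from genes of cell identity and from very highly transcribed genes, and in plasma cells the identity genes include IRF4, XBP1 and PRDM1.

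Promoter sequences are shown for 5 genes with a start site in a broad region and for ID2, whose region matched that of HERPUD1 in fold enrichment and was under 1 kb long. Each is the 250 bases before the start site nearest to the region's summit, from RefSeq (GRCh38.p14), written 5′ to 3′ on the strand of the gene. Capitals mark the motifs found there of a fixed set searched on both strands: GAAA followed after any 2 bases by GAAA (IRF pair), GGAA followed after any 2 bases by GAAA (ETS-IRF composite), CACGTG (E-box), TGACGTCA (cyclic AMP response element), TGANTCA (AP-1), the CCAAT box by those letters, the TATA element as TATAAA, and CCAAT followed after any 9 bases by CCACG (endoplasmic reticulum stress element, which contains a CCAAT box).
ITGB7 (chr12:53207252-53207501, minus strand): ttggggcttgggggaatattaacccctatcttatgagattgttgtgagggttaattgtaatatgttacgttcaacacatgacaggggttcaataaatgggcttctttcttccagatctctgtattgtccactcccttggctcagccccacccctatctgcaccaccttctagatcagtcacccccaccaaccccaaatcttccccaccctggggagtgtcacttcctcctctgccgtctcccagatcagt
TENT5C (chr1:117605798-117606047, plus strand): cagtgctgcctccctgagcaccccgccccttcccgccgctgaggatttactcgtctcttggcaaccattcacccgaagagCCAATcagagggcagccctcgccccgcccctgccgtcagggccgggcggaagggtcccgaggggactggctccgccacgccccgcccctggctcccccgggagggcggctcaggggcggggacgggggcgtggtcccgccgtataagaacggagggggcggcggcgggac
HERPUD1 (chr16:56931892-56932141, plus strand): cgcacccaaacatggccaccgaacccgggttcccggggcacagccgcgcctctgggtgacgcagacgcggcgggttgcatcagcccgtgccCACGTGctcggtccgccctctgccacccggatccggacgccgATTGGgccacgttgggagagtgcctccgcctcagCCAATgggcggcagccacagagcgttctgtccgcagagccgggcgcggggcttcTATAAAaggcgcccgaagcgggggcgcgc
XBP1 (chr22:28800570-28800819, minus strand): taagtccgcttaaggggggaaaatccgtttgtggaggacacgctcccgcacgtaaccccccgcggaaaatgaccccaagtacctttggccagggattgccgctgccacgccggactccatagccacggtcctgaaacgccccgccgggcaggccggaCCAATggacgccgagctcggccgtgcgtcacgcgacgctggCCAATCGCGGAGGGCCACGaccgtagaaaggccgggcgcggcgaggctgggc
IRF4 (chr6:391502-391751, plus strand): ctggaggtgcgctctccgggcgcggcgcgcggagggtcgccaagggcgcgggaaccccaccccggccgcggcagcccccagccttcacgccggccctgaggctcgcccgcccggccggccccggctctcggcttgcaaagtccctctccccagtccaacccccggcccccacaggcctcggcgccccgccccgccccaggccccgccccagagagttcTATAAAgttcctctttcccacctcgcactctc
ID2 (chr2:8681806-8682055, plus strand): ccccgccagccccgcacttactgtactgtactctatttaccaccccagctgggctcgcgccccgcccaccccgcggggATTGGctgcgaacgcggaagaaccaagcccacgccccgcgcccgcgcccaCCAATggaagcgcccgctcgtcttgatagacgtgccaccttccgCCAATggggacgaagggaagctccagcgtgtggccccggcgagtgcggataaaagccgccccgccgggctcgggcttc
The ITGB7 sequence, in the longest region of all, held none of these motifs. TENT5C held a CCAAT box 170 bases before its start. HERPUD1 held an E-box, CCAAT boxes 117 and 83 bases before the start and a TATA box 29 bases before it. The XBP1 sequence held the full stress element 52 bases before the start, on which the unfolded protein response is known to act, and another CCAAT box 93 bases before it. IRF4 held a TATA box 32 bases before its start, and ID2 held 3 CCAAT boxes. None of the 6 sequences held the paired GAAA element, and a match or its absence describes these letters only.

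Peak calling used 38568845 ChIP tags in replicate 1 and 46474586 in replicate 2, against 58025919 and 60348415 input tags. The lists held 41880 and 41666 peaks, of which 156 and 332 were 3 kb or longer. The longest peaks measured 19754 and 13453 bp. Of all protein-coding genes on chromosomes 1 to 22, X and Y in the RefSeq table, 294 of 20037 (1.47%) had an end of their span in a broad region, a further 9047 (45.2%) in shorter shared regions alone, and the 2 together made 46.6%. Defining markers of other cell types (17 genes of T cells, myeloid cells, erythroid cells and hepatocytes) had no end in any shared region, while the 10 plasma cell markers all had an end in one.

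The broad regions covered 1.75 of the 29.5 Mb of shared regions, which is 5.91% of the length in 1.25% of the regions. Their length, which is what selected them, had a median of 3740 bp (quartiles 3276 and 4568) and reached 19754 bp. By length, 239 were of 3 to 4 kb, 124 of 4 to 6 kb and 39 of 6 kb and over, with 10 above 10 kb. Just inside the limit were regions at the histone gene H4C5 (3001 bp), TNFAIP3, an inhibitor of NF-kB signalling (3004 bp), and the kinase gene CDK17 (3008 bp). Just outside were regions 7.21 kb from KLF7 (2995 bp), at STBD1 (2992 bp) and 16.2 kb from TNFRSF13B (2991 bp). Their fold enrichments overlapped, at 21.3, 10.1 and 5.23 inside and 10.3, 6.56 and 10.4 outside in replicate 1, and at 45.5, 13.3 and 9.86 inside and 17.3, 6.06 and 13.4 outside in replicate 2.

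Fold enrichment is the authors' own value for each peak, the ChIP pileup over the local input background at the summit, and the strongest peak of each replicate stands for a region. In broad regions it ran from 2.41 to 85.1 in replicate 1 (median 8.93) and from 2.79 to 98.1 in replicate 2 (median 13.3). Shorter shared regions had medians of 4.25 and 4.90. Replicate 2 had the higher value in 89.1% of broad regions (358 of 402) and in 67.9% of shorter ones. By class of mean fold enrichment (geometric mean of the 2 replicates) the gap was smaller. The shares were 71.4 and 61.1% under 5, 84.6 and 74.9% at 5 to 10 and 91.4 and 90.9% at 10 to 20. They were 98.1 and 93.8% at 20 to 40 and 90.9 and 95.5% at 40 and over. The stronger a shared region, the longer it tended to be, with a rank correlation of 0.63 over all 32246 shared regions, which share both libraries. Within the 402 broad ones it was 0.14. Those were selected on length, which narrows its range, so the 2 correlations cannot be compared. Among the 50 best-ranked shared regions, by the worse of their ranks in the 2 replicates, 16 were broad, among the best 100 there were 34, and among the best 500 there were 80. The scatter of length against fold enrichment shows both sides of this: long regions at moderate enrichment, and short regions as strong as the strongest broad ones.

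**Figure D1:**
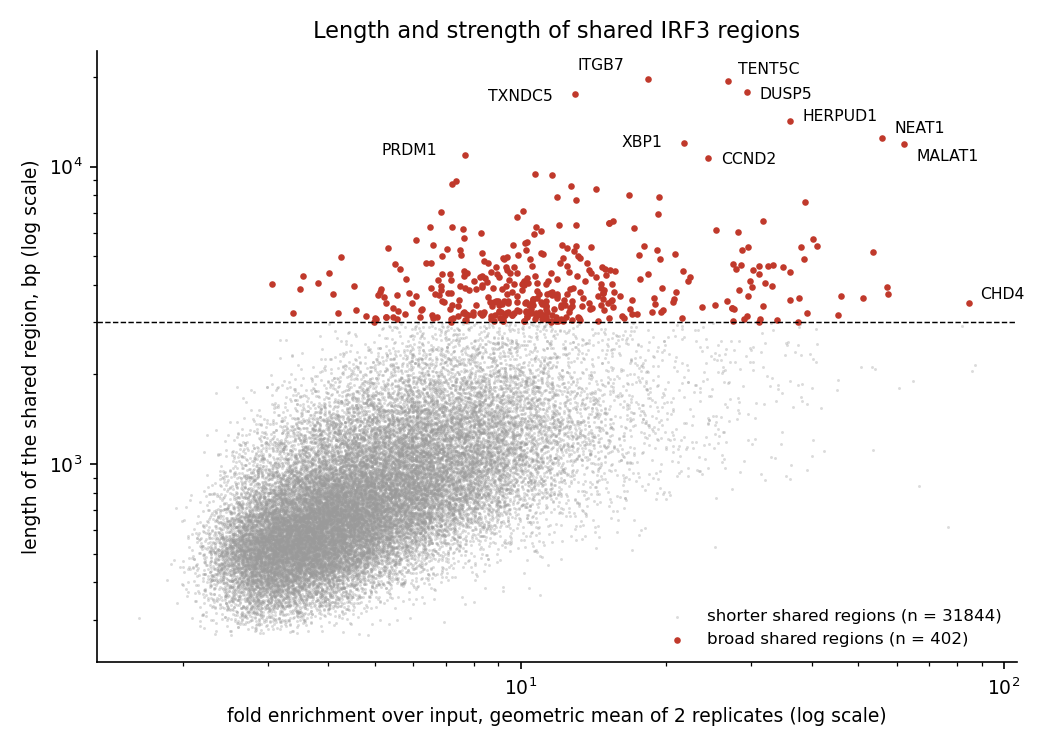
Length of each shared region in bp against its fold enrichment (geometric mean of the 2 replicates), both on log scales, with the 402 broad regions in red, 31844 shorter ones in grey and the 3000 bp limit dashed. The named regions of 10 kb and over range in mean enrichment from that inside PRDM1, the lowest, to that at MALAT1.

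Many broad regions were not a single block in both libraries. A single peak in each replicate made up 136 of the 402, while 225 were built of more than 1 peak in replicate 1 and 92 of more than 1 in replicate 2. Replicate 2 had the longer longest peak in 300 regions. The longest peak of a region ran from 543 to 19754 bp in replicate 1 (median 2650) and from 319 to 13453 bp in replicate 2 (median 3508). A peak that itself reached 3 kb was present in both replicates in 125 regions, and in neither in 46, which passed the limit only when merged. Peaks of both replicates lay over a median of 82.5% of a broad region's length, against 75.3% in shorter regions, which were weaker. By class of mean fold enrichment the medians were 66.5 and 71.3% under 5, 81.2 and 79.9% at 5 to 10 and 84.6 and 82.2% at 10 to 20. They were 83.7 and 84.5% at 20 to 40 and 90.8 and 82.9% at 40 and over, so the sign differed between classes. The 2 summits lay within 100 bp of each other in 66.4% of broad regions (267) and in 77.0% of shorter ones, and in 55 broad regions they were over 1 kb apart.

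Several of the longest regions covered whole genes or long 5′ stretches of them. Of the 12 longest, 5 held an end of a gene of the plasma cell and myeloma list (ITGB7, TENT5C, TXNDC5, XBP1 and CCND2). Over all 402 broad regions, 18 held such an end. The list was chosen with earlier results of these data known. Another of the 12 lay inside PRDM1, which is also on the list, but it held no end of that gene and is not among the 5. The longest, 19754 bp on chromosome 12 (53188259 to 53208012), covered all 15.9 kb of ITGB7, which encodes the integrin beta 7 chain of lymphocyte adhesion, and reached an end of ZNF740. Its fold enrichment was 19.1 in replicate 1, where it was a single peak, and 17.7 in replicate 2, where it was 6 peaks. The region at TENT5C, a poly(A) polymerase gene and tumour suppressor of myeloma, was 19443 bp long (chromosome 1, 117605303 to 117624745, fold enrichment 26.0 and 27.6), and it and a second broad region next to it covered 89.1% of the gene. At DUSP5, a phosphatase gene that restrains ERK signalling, 17737 bp were occupied (chromosome 10, 110496518 to 110514254, 23.1 and 37.6), again the whole gene of 13.6 kb. The 3 longest regions thus lay closer together in enrichment in replicate 1 than in replicate 2.

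Genes of the endoplasmic reticulum followed. TXNDC5, which encodes a disulfide isomerase of secreted proteins, had a region of 17478 bp (chromosome 6, 7895563 to 7913040, 9.65 and 17.4) and 62.2% of its span in broad regions. HERPUD1, a factor of endoplasmic reticulum-associated degradation, had 14268 bp (chromosome 16, 56930322 to 56944589, 27.0 and 48.3), which took in 97.8% of the gene. XBP1, the transcription factor of the unfolded protein response that plasma cells need for secretion, lay whole in a region of 11982 bp (chromosome 22, 28791398 to 28803379, 16.9 and 28.1). At XBP1 replicate 1 had 1 peak and replicate 2 had 2, and in replicate 2 the peak at the start had 28.1 and the other, with its summit past the far end of the gene, 5.63. At HERPUD1 both replicates had 3 peaks, at 27.0, 5.31 and 2.67 in replicate 1 and at 48.3, 6.75 and 3.76 in replicate 2 in order from the start, so that in both the peak at the start was the highest and the last the lowest.

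The other regions among the 12 longest included those of a pair of noncoding RNA genes. NEAT1, the scaffold RNA of nuclear paraspeckles, had 12507 bp (chromosome 11, 65416291 to 65428797, 45.4 and 69.3), and its neighbour MALAT1 had 11889 bp (44.5 and 86.6). A region of 10898 bp lay inside PRDM1, which encodes BLIMP1, a master regulator of plasma cells, with no end of the gene within 7.8 kb of its summit (chromosome 6, 106096857 to 106107754, 7.29 and 8.09). It held an internal start site from the RefSeq promoter table. CCND2, the gene of cyclin D2, had 10686 bp (chromosome 12, 4268939 to 4279624, 22.03 and 27.2), or 18.6% of the gene. A region of 9437 bp lay inside GPRIN3 (chromosome 4, 89292945 to 89302381, 10.7 and 10.7), and 1 of 9391 bp covered part of IGLL5 in the immunoglobulin lambda locus (chromosome 22, 22881133 to 22890523, 10.1 and 13.3). With the next broad region, of 7071 bp, 98.8% of IGLL5 was covered. IGLL5 sits among near-identical light chain segments, so reads there may be placed on the wrong copy. Of the 12, GPRIN3 had the closest values in the 2 replicates and MALAT1 the widest gap.

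**Figure D2:**
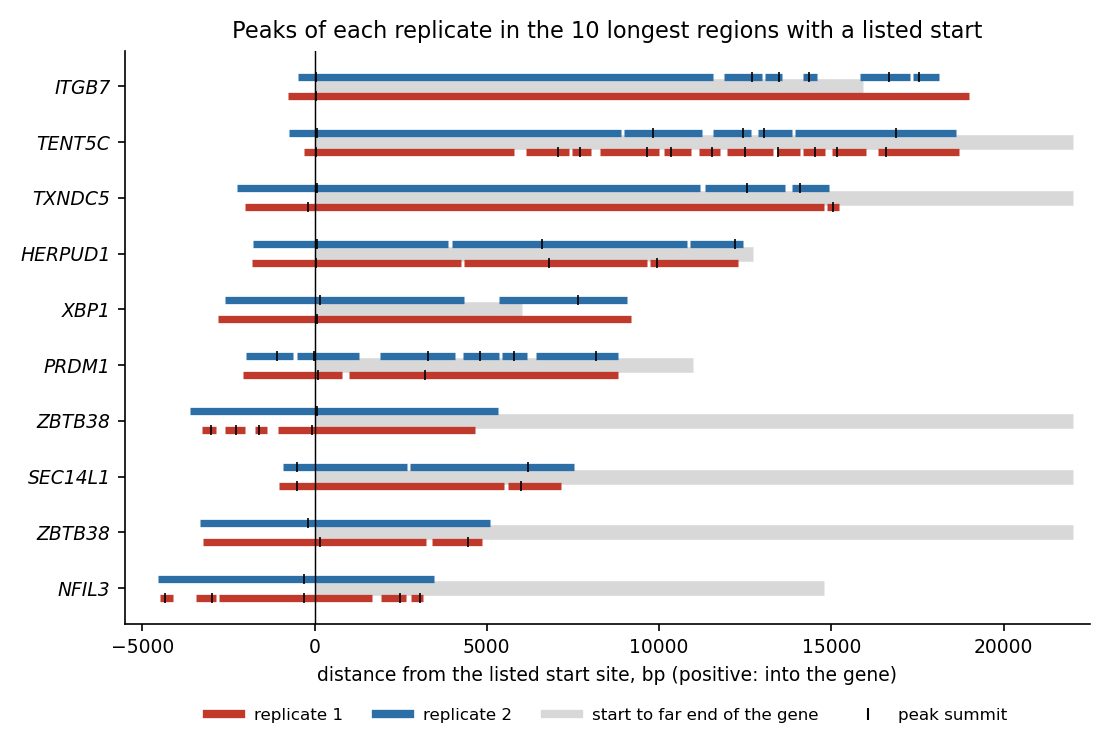
Peaks of replicate 1 (red) and replicate 2 (blue) in the 10 longest broad regions with a start site in the RefSeq promoter table, in bp from that start, with peak summits as ticks and the gene from start to far end in grey. Genes longer than the axis are clipped at its right edge, ZBTB38 appears for 2 regions at different listed starts, and the ITGB7 region is 1 peak in replicate 1 and 6 in replicate 2.

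Strong broad regions were mostly shorter than these. After MALAT1, the best-ranked was at CHD4, the gene of a chromatin remodeller (3486 bp, chromosome 12, 6605463 to 6608948), with 85.1 and 84.3, and it covered 5.14% of the gene. It was followed by the histone genes H1-10 (3719 bp, 36.6 and 90.7), H3-3B (3611 bp, 35.5 and 73.3) and the pair H1-4 and H2BC5 (3933 bp, 33.4 and 98.1). The region that holds the microRNA host gene MIR142HG and an end of TSPOAP1 was 5165 bp long (chromosome 17, 58328197 to 58333361) with 52.0 and 55.5. BTG2, an antiproliferative gene, had 5686 bp (31.0 and 52.4), the small GTPase gene RHOB 3662 bp (28.8 and 73.4), the stress gene GADD45B 5406 bp (33.0 and 51.2) and the bromodomain gene BRD2 5377 bp (28.4 and 51.1). ARID5A, an RNA-binding regulator, completed the 12 together with NEAT1. CHD4 had nearly the same enrichment in both replicates, while H1-4 and RHOB had much higher values in replicate 2.

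MIR142 is a microRNA gene of blood cells, and its hairpin (minus strand) lay inside the broad region named above. Both arms are shown, from RefSeq, because they are the products of the strongest broad region with a microRNA, with the seed (bases 2 to 8) in capitals.
hsa-miR-142-3p (chr17:58331245-58331267, minus strand): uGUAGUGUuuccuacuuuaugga
hsa-miR-142-5p (chr17:58331283-58331303, minus strand): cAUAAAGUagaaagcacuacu
Of 1913 microRNA genes in the RefSeq gene table, 12 (0.627%) lay whole in a broad region. Of these MIR4496 was in the region at SELPLG (18.9 and 42.1) and MIR3652 in that at HSP90B1 (12.1 and 19.7). MIR4507, MIR4538 and MIR4537 shared a region of 3032 bp in the immunoglobulin heavy chain locus (11.5 and 8.92), where segments are repeated and reads may be misplaced.

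Length and enrichment could come apart at a single gene. The region at ID2, which encodes an inhibitor of helix-loop-helix factors, had fold enrichments of 27.6 and 47.0 and was 890 bp long (chromosome 2, 8681834 to 8682723). The HERPUD1 region had 27.0 and 48.3 and was 14268 bp long. CIRBP, a cold-inducible RNA-binding protein gene (28.2 and 46.6, 995 bp), and the region at SNHG7 and LOC124900276 (27.7 and 45.3, 908 bp) were the other 2 strongest regions under 1 kb that held a coding gene end. At the opposite side, the longest regions with a mean fold enrichment under 5 lay at BMP6 and TXNDC5 (4967 bp, 3.72 and 4.87), inside PRKD3 (4383 bp, 3.36 and 4.82) and near CYTIP (4270 bp, 2.66 and 4.72).

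Whether broad regions held the end of a protein-coding gene more often than shorter regions of equal strength depended on the measure. An end lay inside 62.2% of them (250 of 402, exact Clopper-Pearson 95% interval 57.2 to 66.9%), against 25.2% of all shorter shared regions. When the shorter regions were weighted to the fold enrichments of the broad ones, their share was 59.0%, and the difference was 3.22 percentage points (95% interval -1.72 to 8.16, normal approximation, counting error only). A long region has more room for a gene end, so the place of its summit was compared as well. Summits were at most 1 kb from a gene end in 51.5% of broad regions (46.5 to 56.5%) and in 60.4% of shorter regions of equal strength, a difference of -8.90 points (-14.0 to -3.83). Against regions of 2 to 3 kb alone the weighted shares were 60.1% for an end inside and 56.9% for the summit. The sign of the difference thus turned with the measure used. For an end inside, the difference was 7.62 points (2.71 to 12.5) when the lower of the 2 fold enrichments stood for a region and 7.96 (0.0499 to 15.9) without replicate 2, both intervals above 0. Without replicate 1 it was 1.39 (-4.04 to 6.82), and for regions with a single peak of 3 kb in each replicate it was -1.07 (-9.85 to 7.72). Intervals are over regions of the same 2 libraries, which are not replicates.

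This pattern was not uniform over strength. Among regions with a mean fold enrichment of 10 to 20, the summit was near a gene end in 51.1% of 174 broad regions (43.5 to 58.8%) and in 70.7% of 1951 shorter ones (68.7 to 72.7%). An end lay inside 62.1% of these broad regions (54.4 to 69.3%) and 69.4% of the shorter ones (67.3 to 71.4%). In this class broad regions were thus lower by both measures, with overlapping intervals for an end inside. At 20 to 40 the summit was near a gene end in 87.0% of 54 broad regions (75.1 to 94.6%) and in 78.7% of 211 shorter ones (72.5 to 84.0%). These intervals overlapped. An end lay inside 94.4% of broad regions of that class (84.6 to 98.8%) and 77.7% of shorter ones (71.5 to 83.2%). From 5 to 10, an end lay inside 52.3% of 149 broad regions (44.0 to 60.6%) and 40.8% of 10976 shorter ones (39.9 to 41.7%). In that class the summit was near an end in 40.3% (32.3 to 48.6%) and 42.9% (42.0 to 43.8%). At 40 and over there were 11 broad and 22 shorter regions, and the intervals overlapped in both measures.

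**Figure D3:**
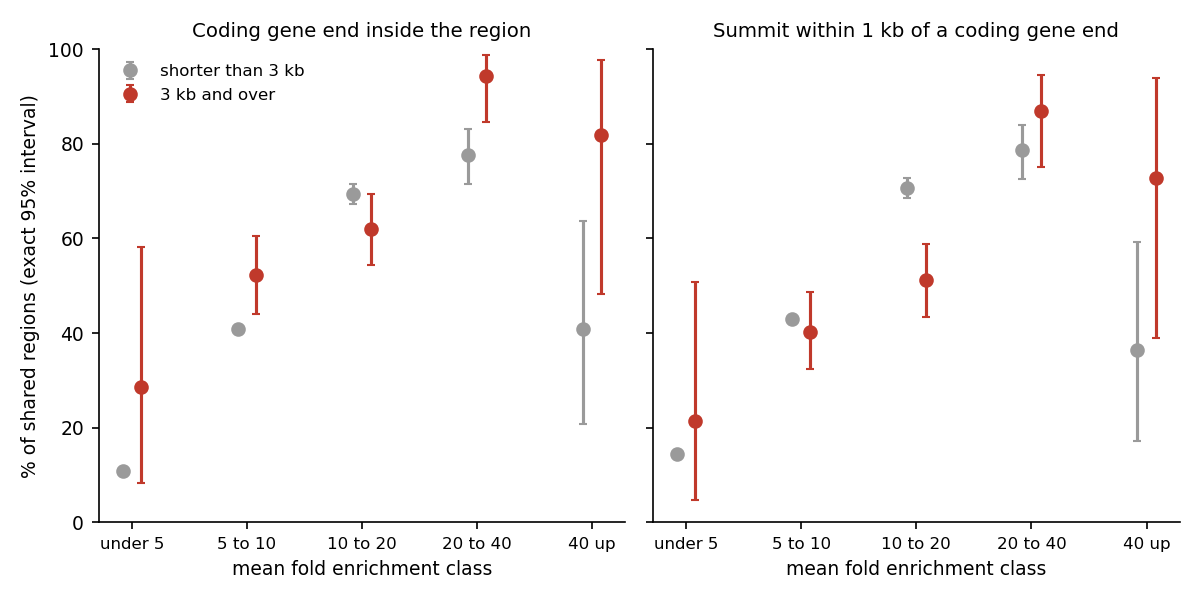
Share of shared regions that hold a coding gene end (left) and whose summit lies within 1 kb of one (right), in percent with exact 95% intervals, by class of mean fold enrichment, for broad regions (red) and shorter ones (grey). The summit share of broad regions is below that of shorter ones at 10 to 20 (51.1 against 70.7%).

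Broad regions could hold whole genes. A whole protein-coding gene lay inside 8.96% of broad regions (36, holding 47 genes, interval 6.35 to 12.2%) and inside 1.10% of shorter regions of equal strength, which length alone makes likelier. Of 221 genes under 2 kb with an end in a shared region, 33 (14.9%, 10.5 to 20.3%) had a broad one, against 3.87% of genes of 2 to 5 kb, 2.96% of those of 5 to 20 kb, 2.74% of those of 20 to 100 kb and 2.59% of those of 100 kb and over. At the rate of all genes of equal enrichment the genes under 2 kb would number 18.6. Histone genes made up 24 of the 33, in 14 regions that neighbours share, and the other genes under 2 kb had 9 of 172 (5.23%, 2.42 to 9.70%), where equal enrichment would give 7.25. At least 2 coding genes had an end in 11.2% of broad regions and in 10.3% of shorter ones of equal strength. Regions with 3 included those at H2AC7, H2BC7 and H3C4, at H2AC20, H2AC21 and H2BC21, and at GLT8D1, NEK4 and SPCS1.

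Regions without a coding gene end numbered 152. Of these 104 lay inside a coding gene and 48 between genes, and 38 of the 152 held an end of a noncoding gene. A location inside a gene with no end was found for 25.9% of broad regions and 20.9% of shorter ones of equal strength, and a summit over 10 kb from any coding gene end for 26.4% and 27.2%. Of the 402, 94 had no end of any gene, coding or not, inside them or within 1 kb of their edges. The longest of those were the PRDM1 and GPRIN3 regions, 2 regions inside ZBTB38, a zinc finger gene of methylated DNA binding (8945 and 8427 bp), and 1 inside TXNDC11 (8759 bp). The coding gene end nearest to the summit of the last was that of SNN, 10.2 kb away. Their fold enrichments were modest, at 6.39 and 8.42 for the first ZBTB38 region and 6.48 and 8.04 inside TXNDC11, except for the second ZBTB38 region at 9.17 and 22.3.

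Between the length classes, the share of regions with a gene end inside was level. The values for whole genes, neighbouring regions and reach into the gene were highest in the longest class. Room for a whole gene and reach grow with length itself, which defines the classes. An end lay inside 61.5% of regions of 3 to 4 kb (55.0 to 67.7%), 64.5% of those of 4 to 6 kb (55.4 to 72.9%) and 59.0% of those of 6 kb and over (42.1 to 74.4%). Summits were within 1 kb of a gene end in 53.6%, 48.4% and 48.7%, with overlapping intervals. A whole gene lay inside 6.69%, 12.1% and 12.8%, the last 2 close together. Median fold enrichment in replicate 1 was 8.43, 9.13 and 10.7, and in replicate 2 it was 13.2, 12.9 and 18.6. Another shared summit lay within 12.5 kb of the edges of 71.5% of regions of 3 to 4 kb, 79.8% of those of 4 to 6 kb and 87.2% of those of 6 kb and over. Over all broad regions that share was 75.6% (304, interval 71.1 to 79.7%), against 49.9% in shorter regions of equal strength and 62.7% in those of 2 to 3 kb.

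Direction could be read at 213 broad regions that held the RefSeq start of exactly 1 coding gene. They reached a median of 1406 bp upstream of that start and 2480 bp downstream, with the summit a median of 69 bp after it. The downstream arm was the longer in 68.1% (145 of 213, interval 61.4 to 74.3%), against 61.8% of shorter regions of equal strength. By length it was the longer in 63.0% of 119 regions of 3 to 4 kb (53.7 to 71.7%), 70.8% of 72 regions of 4 to 6 kb (58.9 to 81.0%) and 86.4% of 22 regions of 6 kb and over (65.1 to 97.1%), with overlapping intervals. For peaks of 3 kb and over in replicate 1 alone it was 57.5% (45.4 to 69.0%) and in replicate 2 alone 69.7% (62.3 to 76.3%). The value thus differed between the replicates, with overlapping intervals. The summit lay within 300 bp of the start in 62.9% of these broad regions. In shorter regions with 1 start, not weighted for strength, it did so in 89.5%. The plot of these regions is ordered by downstream reach, so its right-hand arms lengthen by construction.

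**Figure D4:**
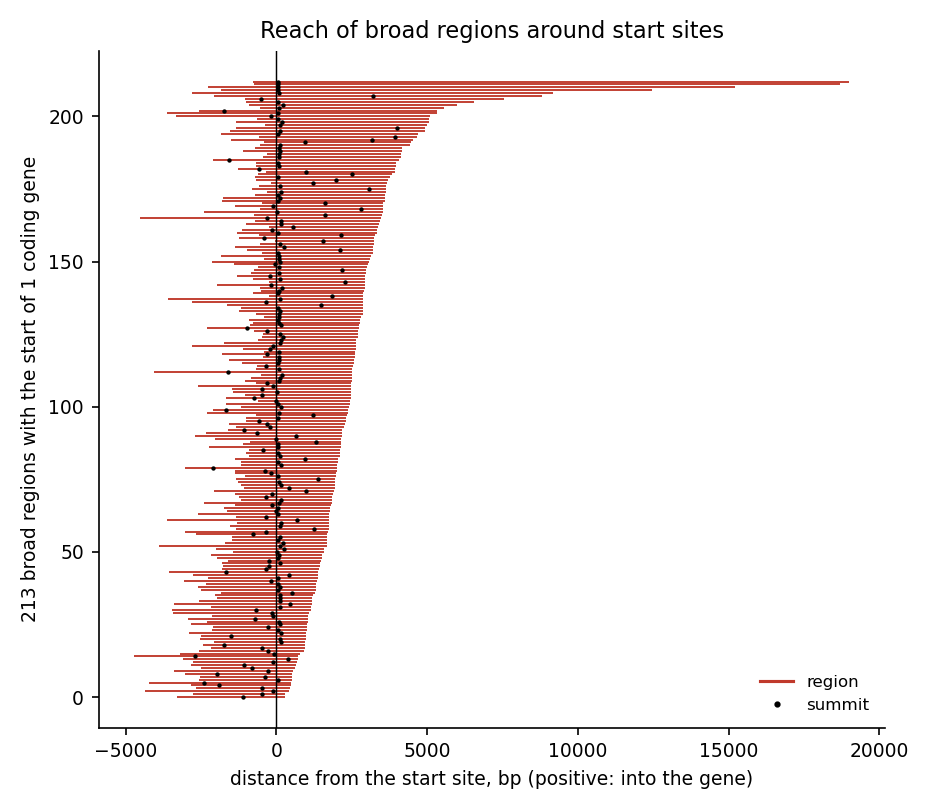
Extent of the 213 broad regions that hold the start of 1 coding gene, in bp from that start (positive values run into the gene), ordered by their downstream reach, with each summit as a black point. Downstream reach has a median of 2480 bp and upstream reach of 1406 bp.

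Of these 213 regions, 17 ran past the far end of the gene. The genes were ITGB7, XBP1, CCL3L3, RGS1, BTG2, GADD45B, ZFP36, KLF2, FOS, RGS2, CCL3, ANXA2R, H1-10, RHOB, JUND, HDDC3 and H4C5. They were short, with a median of 2601 bp from start to far end, and the regions went a median of 987 bp beyond. XBP1 was passed by 3162 bp, ITGB7 by 3064 bp, H4C5 by 1693 bp and GADD45B by 1469 bp. Most of the 213 covered little of their gene: 122 covered under 10%, and the median was 7.83%. These genes, apart from ITGB7, XBP1, BTG2, RHOB, GADD45B and members of the lists below, were named after their values were seen.

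Plasma cell and myeloma genes were well represented in broad regions. Of 39 listed genes, 15 had an end in a broad region (38.5%, interval 23.4 to 55.4%, against 1.47% of all coding genes), 19 in shorter regions only and 5 in none. At the rate of all genes of equal enrichment, 2.96 of them would be broad. This list and those below were chosen with earlier results of these data known, so such comparisons describe the lists and test nothing. The regions of the occupied members had a median length of 2631 bp and a median mean fold enrichment of 11.7, against 1094 bp and 7.002 over all 9341 occupied coding genes. They counted 3 of 3 to 4 kb, 5 of 4 to 6 kb and 7 of 6 kb and over by the longest region of each gene. Replicate 1 alone gave 11 genes and replicate 2 alone 13.

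Of the 10 plasma cell markers, 5 had a broad region at an end. These were IRF4, the transcription factor on which myeloma cells depend (4637 bp, 20.1 and 52.4), XBP1, SDC1, which encodes the plasma cell surface marker CD138 (4389 bp, 10.3 and 8.73), TNFRSF17, which encodes BCMA (5468 bp, 7.58 and 12.3), and POU2AF1, a coactivator of octamer factors (3874 bp, 12.6 and 12.7). The whole of TNFRSF17 was covered, against 16.9% of IRF4, 15.1% of SDC1 and 11.1% of POU2AF1. IRF4 had the largest gap between replicates and POU2AF1 the smallest. The other 5 markers had shorter regions at their ends: MZB1 (2532 bp, 14.8 and 18.8), CD38 (1391 bp, 4.56 and 5.09), PRDM1 (1323 bp, 4.07 and 6.09), JCHAIN (930 bp, 4.89 and 6.31) and SLAMF7 (663 bp, 6.15 and 8.21).

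Other members were the growth and survival genes of myeloma. PIM2, a serine-threonine kinase gene, had 6557 bp (24.7 and 40.6) with a second broad region of 3315 bp beside it (5.89 and 6.64), and 96.6% of it was covered. MYC lay in 7873 bp (12.7 and 11.2), to 99.0% of its span, in a single peak of 7868 bp in replicate 1 and a longest peak of 3574 bp in replicate 2. MAF had 3794 bp (13.9 and 17.6) and CD28, a costimulatory receptor gene, 3419 bp (10.3 and 14.9). The 2 replicates were closer for MYC, MAF and CD28 than for PIM2. B cell genes had a broad region at 1 of 29 (IGLL5), a shorter one at 12 and none at 16.

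Immediate early and stress response genes, which are known to be switched on within minutes of a stimulus, made up another group. Of 42, 17 had an end in a broad region (40.5%, interval 25.6 to 56.7%), 15 in shorter ones only and 10 in none, where equal enrichment would give 5.59. TSC22D3, counted among the 15, had a listed start but no end in a broad region of 3293 bp (mean fold enrichment 19.7). All 17 were in separate regions, with medians of 21.2 in replicate 1 and 37.5 in replicate 2. FOS, of the AP-1 factor, had 4473 bp with 6.02 in replicate 1 and 38.8 in replicate 2, where its longest peaks were 661 and 4473 bp. JUN had 5234 bp (9.70 and 37.6), KLF2 4877 bp (21.5 and 69.4), ZFP36, which encodes an RNA-decay factor, 5376 bp (24.4 and 35.7), and DUSP4 6196 bp (10.9 and 27.0). Enrichment was higher in replicate 2 in 16 of the 17 regions, with MYC the exception. A peak of 3 kb lay at 6 of the genes in replicate 1 alone and at 17 in replicate 2 alone. Over all 402 broad regions such a peak was present in 155 in replicate 1 and in 326 in replicate 2. The lean of width to replicate 2 was thus shared by broad regions at large. That library had more tags and mostly higher fold enrichment, and the part of either in this result was not tested.

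Histone genes showed the same lean to replicate 2. Of 69, 29 had an end in a broad region (42.0%, interval 30.2 to 54.5%) against 14.8 at equal enrichment, 31 in shorter ones only and 9 in none. The 29 lay in 15 regions, since neighbouring histone genes share them. Enrichment was higher in replicate 2 in all 15 (medians 19.97 and 50.7), and the longest peak was longer there in all 15. The histone genes in broad regions had a median mean fold enrichment of 29.4. Among all shared regions of 20 to 40, replicate 2 was higher in 98.1% of broad and 93.8% of shorter ones, so this lean was general at that strength. Replicate 1 alone gave 13 of the 29 histone genes and replicate 2 alone 29. No histone region reached 6 kb, and the longest was the 5247 bp at H2AC7, H2BC7 and H3C4 (14.6 and 56.2). Histone genes are near-identical copies, so reads may be shared among them.

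For the plasma cell and myeloma list the longest peak was longer in replicate 2 in 8 of 18 regions, and over all broad regions in 300 of 402. Median fold enrichment in those 18 regions was 12.7 and 16.7. MYC and KLF2 count in both the plasma cell and the immediate early list, and the lists were compared by their values only.

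**Figure D5:**
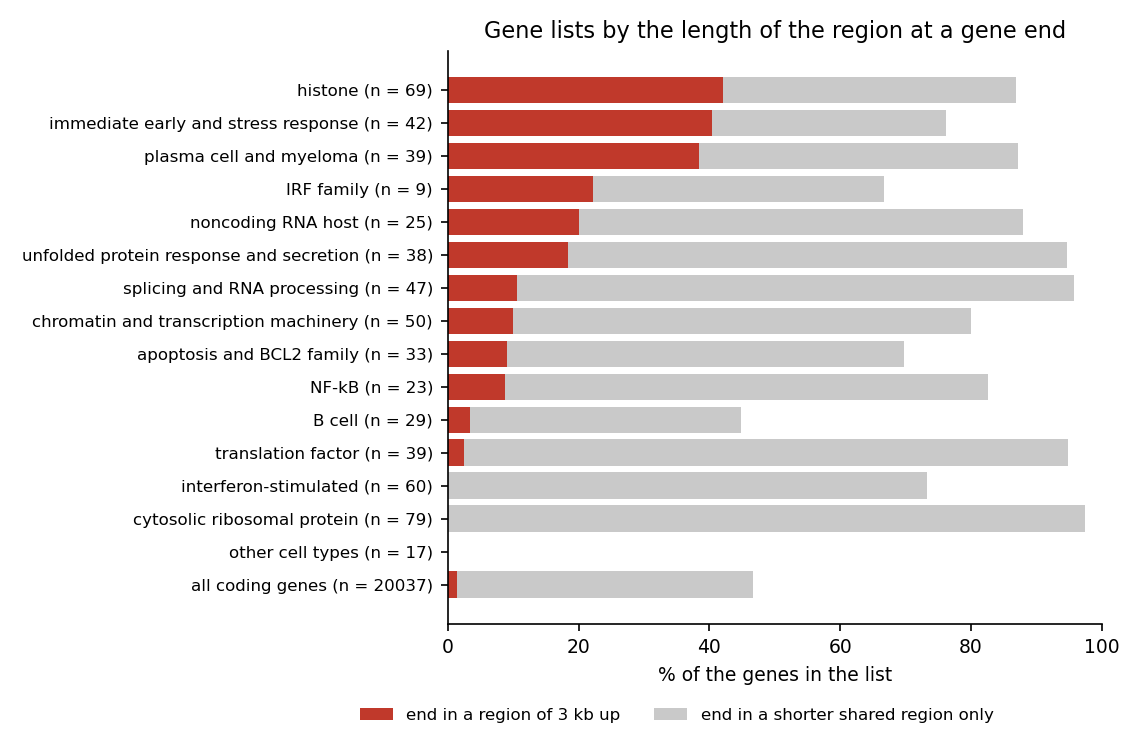
Share of the genes of each list with an end in a broad region (red) or in shorter shared regions only (grey), in percent, with all coding genes at the bottom. The histone, immediate early and plasma cell lists have 42.0, 40.5 and 38.5% in broad regions, and the cytosolic ribosomal protein and interferon-stimulated lists 0.

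Strong enrichment did not bring length everywhere. Cytosolic ribosomal protein genes, which are among the most transcribed of all genes, had shorter regions at 77 of 79 and a broad one at none, where equal enrichment would give 9.19. Their median mean fold enrichment was 16.4, and 72 of them had 10 or more, but the median length was 1171 bp. Of all 2018 coding genes with a mean fold enrichment of 10 or more, 201 (9.96%) had a broad region. RPL3 had 21.3 and 75.5 over 1799 bp, RPLP0 20.1 and 57.5 over 1790 bp, and the longest region of the list was at RPL28 (2837 bp, 15.3 and 30.2). Translation factor genes had a broad region at 1 of 39 (EIF5A, 3032 bp, 9.07 and 15.5) and shorter ones at 36, where equal enrichment would give 4.36. No gene of these 2 lists had a single peak of 3 kb at an end in either replicate.

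Interferon-stimulated genes, the textbook targets of IRF3, had no broad region at any of 60 (upper 95% bound 5.96%), with 44 in shorter regions and 16 in none. At their enrichment, a median of 5.99, the rate of all genes would give 0.764. The longest region of the list was at TRIM25, a ubiquitin ligase gene of RIG-I signalling (2521 bp, 11.1 and 35.6), followed by PSMB8 (2267 bp, 3.91 and 8.36) and LAP3 (2044 bp, 9.31 and 19.2). Besides IRF4, IRF2 was the other gene of the 9-member IRF family with an end in a broad region (4058 bp, 9.48 and 12.3). Equal enrichment would give 0.633 for the family by that count of ends. A listed start of IRF5, but no end of its span, lay in a broad region of 3975 bp (mean fold enrichment 6.84). Of 23 NF-kB pathway genes, TNFAIP3 and the chemokine gene CCL3 (4435 bp, 15.8 and 82.5) had broad regions, against 1.16 at equal enrichment, and replicate 1 alone gave 1. CCL3 has near-identical copies nearby, so its value may include reads of those copies.

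Genes of the unfolded protein response and secretion had broad regions at 7 of 38, against 2.99 at equal enrichment, and shorter ones at 29. Besides XBP1 and HERPUD1 these were ERN1, which encodes the stress sensor IRE1 (4257 bp, 19.7 and 25.5), EDEM1 (4380 bp, 4.78 and 12.5), HSP90B1, a chaperone gene (3533 bp, 12.1 and 19.7), and the signal peptidase genes SPCS1 and SPCS2. In replicate 1 alone there were 3 and in replicate 2 alone 5. Splicing and RNA processing genes had 5 of 47 (4.32 at equal enrichment), SRSF3 with the longest (3661 bp, 20.9 and 42.0). Chromatin and transcription machinery genes had 5 of 50 (3.39), namely CHD4, BRD2, ARID5A, KMT2E and SMARCA2. Apoptosis genes had 3 of 33 (0.878), which were BCL2 (4266 bp, 7.63 and 10.6), BCL2L11, which encodes BIM (4029 bp, 13.3 and 17.9), and CFLAR (5054 bp, 8.54 and 11.5). Replicate 1 alone gave 1 splicing, 2 chromatin and 1 apoptosis gene, and replicate 2 alone 4, 5 and 3. Of 25 listed noncoding RNA genes, 5 had an end in a broad region, against 0.629% of all 22097 noncoding genes in the RefSeq table (139), with no count made at equal enrichment. They were MALAT1, NEAT1, SNHG3 (7583 bp, 29.6 and 50.9), LINC-PINT (3461 bp, 8.03 and 10.4) and MIR142HG.

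Part of the broad regions stood in groups. With edges within 50 kb counted as neighbours, 101 regions (25.1%) fell into 40 groups of 2 or more, and 15 groups held at least 3. The largest held 6 regions with 24.0 kb of occupied sequence within 152 kb of the histone cluster on chromosome 6 (26122629 to 26274778). A group of 4 inside ZBTB38 on chromosome 3 (141378627 to 141413787) filled 24.6 of 35.2 kb. Groups of 4 also lay at PRKD3 (17.4 kb occupied) and at FOXO3, a forkhead factor gene of survival signalling (16.5 kb). TENT5C had 3 regions with 30.7 kb occupied, TXNDC5 and BMP6 3 with 25.7 kb of 33.5 kb, TXNDC11 and SNN 3 with 20.98 kb, and PRDM1 3 with 18.4 kb of 22.2 kb. Other groups of 3 included those at CELF2, PIM2, INPP4A and SDC1.

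The letters of the promoters were compared at equal enrichment. RefSeq promoter windows of 300 bases (250 before and 50 after the start) were given for 15843 coding genes, and 256 of these had a start in a broad region. In regions with 1 start, the summit was within 300 bp of it in 62.9% of broad and 89.5% of shorter ones. The windows thus lay near the summit less often in broad regions. The paired GAAA element was in 3.13% of the 256 (interval 1.36 to 6.06%), 2.59% of promoters in shorter regions of equal strength and 3.18% of all promoters. The 8 promoters with it are shown as windows of 30 bases on the strand of the gene, with the match in capitals, because this is the element IRF3 is known to bind.
H2BC10 (chr6:26272853-26272882, plus strand): gaaccaatgaGAAACCGAAActcagccagc
H2BC11 (chr6:27132768-27132797, minus strand): tcacgctgttTTTCCTTTTCgttggcgctt
JADE2 (chr5:134525655-134525684, plus strand): ggtttaaaaaGAAACAGAAAcatacacagg
MAP3K8 (chr10:30434055-30434084, plus strand): agagaaagggGAAATGGAAAagtcggggag
MLLT6 (chr17:38705032-38705061, plus strand): gccgtgaaacGAAAAAGAAAgcaggcaaag
PLXNC1 (chr12:94148574-94148603, plus strand): ttcacaatggGAAAGTGAAAcgcacaagcg
WDR74 (chr11:62839703-62839732, minus strand): cacctcctggTTTCATTTTCgtaaagcaaa
WIPF1 (chr2:174597854-174597883, minus strand): accaatctagTTTCTTTTTCtgcagcaaag
The H2BC11 and PLXNC1 matches lie after the listed start nearest to the region's summit, and the other 6 before it. The MAP3K8 match also lies after another listed start of that gene. MAP3K8 is a kinase gene of inflammatory signalling with a region of 5273 bp, and WIPF1, an actin regulator, had 5253 bp. The lowest mean fold enrichment of the 8 was 5.97, at PLXNC1, and the highest 36.1, at WDR74.

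Most other motifs had close shares. The ETS-IRF composite was in 2.34% (2.05% at equal enrichment, 2.51% of all promoters), the E-box in 8.20% (10.8%, 8.82%), the cyclic AMP response element in 3.91% (5.01%, 2.56%), the AP-1 motif in 4.30% (2.80%, 5.70%) and CCAAT in 43.4% (40.4%, 36.4%). The ETS core CCGGAA, which can overlap the composite, was in 14.5% of promoters in broad regions (interval 10.4 to 19.4%), in 33.6% of those in shorter regions of equal strength and in 22.7% of all. The GC box GGGCGG was in 65.6% (59.5 to 71.4%), against 77.3% and 58.3%. The TATA box was in 14.5% against 9.96% and 9.75%, but without histone genes, an alternative chosen after seeing the data, in 8.37% (5.11 to 12.8%) against 7.41%. The ETS core kept its gap without them, at 15.9% against 35.4%. CCAAT, the more frequent in broad regions with histone genes, was in 37.0% against 38.8% without them. The stress element was in 2 promoters, XBP1 and HSP90B1. The observed-to-expected CpG ratio had a mean of 0.798 in broad regions, 0.895 at equal enrichment and 0.668 over all promoters, and GC content means of 63.1, 66.2 and 61.3%.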

How the data were processed

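Peak lists of 2 IRF3 ChIP libraries of MM1.S cells were analysed. The authors called narrow peaks, per the file headers, in each library against the input of the same number with MACS2 2.1.2 at a q-value cutoff of 0.05 on tags of 74 bp. The submitters' processing notes name GRCh38, deepTools 3.3.1, MACS2 2.1.1, SAMtools 1.2, BWA 0.7.15 and Picard 2.6.0. Removal of duplicates or problem regions is not given in the sources used. The deposited fold enrichment is a ratio to the local input background, the deposited pileup is a signal in stacked fragments, and the deposited −log10 p and −log10 q came under damaged column names and were told apart by the order MACS2 writes.

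Merging used pandas 2.3.3 and numpy 2.4.6 under Python 3.11.15. Gene spans came from RefSeq (GRCh38.p14), with either end of a span counted as a gene end, and start sites from its promoter table, which matched 15843 coding genes. Shares at equal strength weight shorter regions by classes of mean log2 fold enrichment 0.5 wide with the broad regions' class sizes, and expected counts of genes use the rate of all occupied genes in each class. Intervals are exact binomial (Clopper-Pearson, scipy 1.17.1) and cover counting error only. The tag totals set the depth, and the peak lists hold nothing below the cutoff. No p-value was computed, since regions of 2 libraries are not replicates. Merging, gene ends and the weighting were tested on simulated data.

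The members and the gene lists were chosen with earlier results of these data known, and 584 of 585 listed names matched the table. Regions named were the 12 longest, the 12 best-ranked, the 5 with most genes, the 5 longest with no gene end within 1 kb, 3 on each side of the limit, the 3 longest of low and 3 strongest of short length, and up to 4 members of each list, of which 1 region is not reported here. Further list members, groups, microRNA genes and windows were chosen after their values were seen. Alternatives were length limits of 2500 and 4000 bp, single peaks, stricter merging, −log10 q of 5, each replicate alone, the lower fold enrichment, narrower classes and the summit in place of the region.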

Additional observations from a re-analysis of the deposited data

How the results depend on the processing

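The number of broad regions followed the limit and the library: 763 at 2500 bp, 163 at 4000 bp and 125 when a single peak of 3 kb was asked of each replicate, and 156 to 332 with 1 replicate left out. The share of coding genes with an end in a broad region was 2.68%, 0.579% and 0.459% under the first 3, and 0.549 to 1.21% with 1 replicate left out. The share of broad regions with a gene end inside moved little, from 57.7 to 63.3% with 1 replicate left out, and was 51.5% by the summit. Shorter regions of equal strength held an end in 57.0% (2500 bp), 62.0% (4000 bp), 61.9% (single peaks), 54.6% (lower fold enrichment), 60.4% (by the summit) and 49.7 to 61.9% (1 replicate left out). The difference was -8.90 points by the summit, -1.07 for single peaks, 7.62 (2.71 to 12.5) with the lower fold enrichment, 7.96 (0.0499 to 15.9) without replicate 2 and 1.39 without replicate 1. At 2500 bp, 1 interferon-stimulated and 2 ribosomal protein genes became broad. Histone genes fell to 10 at 4000 bp and 13 with single peaks (13 to 29 with 1 replicate left out), immediate early genes to 6 with single peaks (6 to 17), and plasma cell genes to 9 with single peaks (11 to 13). The cause of these moves was not tested. Of the 77 recomputed values of the main results, 51 stayed within their interval or within 1.5 times of the reported count.

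No paired analysis was possible because no test was made between groups: each input entered only through the peak calls of the ChIP library with its number. Depth limits the weak flanks of regions, which can drop below the cutoff in the library with fewer tags, and the effect of depth on length was not tested. Copy number and repeated sequence were not analysed here, and 1 antibody and 1 cell line were used.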
